A study of Mus musculus with 15 samples.

Results

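Regulators of G protein signalling (RGS proteins) are followed here through 7 genes, Rgs1, Rgs2, Rgs3, Rgs10, Rgs14, Rgs16 and Rgs19. They were chosen by name, with earlier results of these data known, and all 7 were found among the 17594 genes of the expression table. RNA was sequenced from sorted splenic T cells of mice on a C57BL/6 background. In the KO animals a conditional allele of Hpgd, the gene of the enzyme that inactivates prostaglandin E2, was combined with FOXP3-Cre-YFP, so that Cre is driven by the promoter active in regulatory T cells. The groups were regulatory T cells of control animals (Treg WT, n = 4), regulatory T cells of KO animals (Treg KO, n = 4), conventional CD4+ T cells of control animals (Tconv WT, n = 3) and conventional CD4+ T cells of KO animals (Tconv KO, n = 4). No animal was treated, as far as the labels say, and the labels give neither age nor sex, nor whether animals were pooled, nor whether the controls carried Cre.

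A G protein coupled receptor switches on a heterotrimeric G protein by loading its alpha subunit with GTP. RGS proteins bind the active alpha subunit, speed up its GTP hydrolysis and so end the signal. In lymphocytes they are known for limiting responses to chemokines and sphingosine 1-phosphate, which guide migration, and prostaglandin E2 itself acts on receptors of this class. Rgs1, Rgs2, Rgs3 and Rgs16 belong to the R4 subfamily, Rgs10 and Rgs14 to the R12 subfamily, and Rgs19, also called GAIP, to the RZ subfamily.

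The libraries held 6.43 to 10.0 M reads in Treg WT, 2.64 to 4.71 in Treg KO, 6.60 to 11.1 in Tconv WT and 2.95 to 10.3 in Tconv KO. Foxp3, the defining transcription factor of regulatory T cells, had normalized read counts of 3314 to 4800 in the 8 Treg libraries and 14.4 to 69.5 in the 7 Tconv libraries. Hpgd had 1 read in Treg WT and 0 reads in the other 11 libraries, so that in Treg KO the limit on its level is 0.193 reads per M reads, and it is no check of the genotype labels. Y-linked transcripts (Ddx3y, Kdm5d, Eif2s3y) were read in the WT groups and were at 0 in both KO groups. Genotype, sex, the range of sample numbers (483 to 490 against 574 to 581) and, in Treg, depth ran together and cannot be told apart in any comparison of KO with WT. The library Tconv KO replicate 1 stood apart, with a summed level of 4 Treg markers of 4062 against 640 to 1778 in the other Tconv KO libraries, of 9 CD8 T and NK cell markers of 2099 against 806 to 1287, and of 10 B cell markers of 351 against 75.6 to 163. Few genes made up most of these sums there: Ikzf2 (3195), Eomes (778) with Nkg7 (914), and Cd22 (306). Foxp3 (47.2) lay within the range of the other Tconv KO libraries. Il2ra (55.9), Klrd1 (26.2) and Klrb1c (19.2) lay below them. Differences of the 7 genes that move by over 1.5 times without Tconv KO replicate 1 are also given without it. All normalized read counts below are the authors' size-factor-scaled values, and log2 fold changes are on the log2(value + 1) scale, which understates the change of low genes.

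Per kilobase of the principal transcript, Rgs10, a small protein that consists of little more than its RGS domain, had the highest mean level of the 7 genes in all 4 groups. Its level per kilobase was 986 ± 34.7 (SD, n = 4) in Treg WT and 790 ± 47.3 (n = 4) in Treg KO, and among Tconv it was 618 ± 70.0 (n = 3) in WT and 635 ± 25.0 (n = 4) in KO. In Treg WT the order of levels per kilobase continued with Rgs14 (453 ± 20.9), Rgs1 (366 ± 33.4), Rgs19 (344 ± 8.66), Rgs3 (267 ± 25.6), Rgs16 (161 ± 23.3) and Rgs2 (35.3 ± 5.92). The ranges of Rgs1 and Rgs19 overlapped there, at 325 to 404 and 333 to 351. In Tconv WT the order was Rgs10, Rgs14 (459 ± 10.2), Rgs19 (426 ± 36.1), Rgs3 (206 ± 7.75), Rgs16 (38.9 ± 4.37), Rgs1 (36.8 ± 5.51) and Rgs2 (36.2 ± 5.49). Neither Rgs14 and Rgs19 nor the last 3 differed there beyond their spread. Rgs1 thus ranked 3 of 7 in Treg WT and 6 of 7 in Tconv WT. In Treg KO the order was Rgs10, Rgs1 (448 ± 82.5), Rgs14 (357 ± 66.9), Rgs19 (344 ± 36.6), Rgs3 (289 ± 20.9), Rgs16 (240 ± 135) and Rgs2 (68.5 ± 17.4), with neighbours from Rgs14 to Rgs16 within their spread of each other. In Tconv KO it was Rgs10, Rgs14 (402 ± 42.7), Rgs19 (399 ± 64.2), Rgs3 (268 ± 53.8), Rgs1 (96.9 ± 99.3), Rgs16 (77.2 ± 49.9) and Rgs2 (57.9 ± 12.5), and neither Rgs14 and Rgs19 nor the last 3 differed beyond their spread. With the longest transcript of each gene in place of the principal one, Rgs10 stayed highest in every group, but the place of Rgs1 moved from 3 to 4 in Treg WT, from 2 to 4 in Treg KO, from 6 to 7 in Tconv WT and from 5 to 6 in Tconv KO. Rgs19 then also stood above Rgs14 in Tconv KO, and Rgs16 just above Rgs3 in Treg KO (239.7 against 239.4).

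Treg were first compared with Tconv. In WT animals 3 of the 7 genes, Rgs1, Rgs16 and Rgs10, were higher in Treg and 0 were lower by limma's moderated test with Benjamini-Hochberg adjustment over 11314 genes (adjusted p under 0.05, called passed below), beside 18.1% of all tested genes called, 10% higher and 8.06% lower. The median log2 fold change over all 7 genes was 0.37, beside -0.02 over all tested genes. In such bulk RNA a larger share of cells with a transcript and more transcript per cell cannot be told apart.

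Rgs1, which limits the response of lymphocytes to chemokines, lies on chromosome 1 (GRCm38, chr1:144242296-144249242, minus strand). Its normalized read counts were 1249, 1373, 1552 and 1452 in Treg WT and 154, 153 and 117 in Tconv WT. All Treg WT libraries lay far above all Tconv WT libraries. The log2 fold change was 3.31 ± 0.48 (SE), or 9.94-fold, with an adjusted p of 1.5e-04 by limma. Rgs1 also passed in the KO animals, where Treg KO held 1510, 1647, 2189 and 1541 and Tconv KO held 930, 302, 154 and 103. Those groups did not overlap either, with 1 Tconv KO library, replicate 1, well above the other 3. The log2 fold change was 2.71 ± 0.45 (limma, adjusted p = 3.1e-04), and 3.33 without Tconv KO replicate 1.

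Rgs16, which acts on alpha subunits of the Gi and Gq families and is known to be induced when T cells are activated, lies 9.49 Mb from Rgs1 on the same chromosome (chr1:153740349-153745468, plus strand). Exons of an antisense gene, Gm28513, overlap it on the other strand, and since no source used here gives the strand setting of the counting, reads of the pair cannot be told apart. Its values were 389, 398, 421 and 297 in Treg WT and 100.3, 80.1 and 92.8 in Tconv WT, with no overlap. The log2 fold change was 2.03 ± 0.62 (limma, adjusted p = 0.031), and the call was lost without Treg WT replicate 1, 2 or 3 or any Tconv WT replicate (adjusted p 0.048 to 0.0985 over the 7 fits that each leave out 1 library). In the 9 other alternatives Rgs16 passed each time between the WT cell types, with adjusted p from 4.2e-08 to 0.042 (limma, edgeR or DESeq2). In KO animals Rgs16 ranged from 189 to 959 in Treg and from 28.9 to 309 in Tconv, and the groups overlapped. It passed there at 1.83 ± 0.57 (limma, adjusted p = 0.023). That call was lost without Treg KO replicate 1 (adjusted p = 0.0732) or 2 (0.0513) and in a fit of these groups alone (0.11), within a range of 0.00433 to 0.11 over all alternatives. Without Tconv KO replicate 4 the log2 fold change was 1.10.

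Rgs10 lies on chromosome 7 (chr7:128373621-128418758, minus strand). Its values were 854, 913, 853 and 849 in Treg WT and 553, 600 and 478 in Tconv WT. The groups were tight and did not overlap, and the log2 fold change was 0.68 ± 0.08 (limma, adjusted p = 1.5e-05). In KO animals the values were 657, 704, 750 and 669 in Treg and 526, 571, 574 and 563 in Tconv. Treg KO again lay above every Tconv KO library, by 0.31 ± 0.07 (limma, adjusted p = 0.0037). With Rgs1 and Rgs16, 3 of the 7 genes were higher and 0 lower in Treg KO than in Tconv KO, where 31.4% of all tested genes were called, 15.8% higher and 15.6% lower.

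The other 4 genes did not pass in either comparison of cell types, although with adjacent label numbers as a random block Rgs3 and Rgs19 passed in WT (limma, adjusted p = 0.0236 and 0.0408). Rgs3, a larger protein with several isoforms (chr4:62559847-62704001, plus strand), had 1046, 1095, 897 and 1118 in Treg WT and 793, 836 and 779 in Tconv WT. The groups did not overlap, but the adjusted p was 0.053 at a log2 fold change of 0.37 ± 0.12 in limma, and it ranged from 0.00168 to 0.237 over the alternatives, 6 of which passed. Rgs19, first described as a partner of a Gi alpha subunit (chr2:181688419-181693977, minus strand), had 504 to 530.4 in Treg WT and 581 to 684 in Tconv WT. It too did not overlap and missed the threshold (-0.30 ± 0.12, limma adjusted p = 0.090), and it passed in 4 alternatives. In KO animals the values of Rgs19 overlapped (474 to 588 in Treg, 460 to 676 in Tconv), and its adjusted p in limma was 0.17 with all libraries and 0.00725 without Tconv KO replicate 1 (0.00725 to 0.381 over the fits that each leave out 1 library). Rgs2 and Rgs14 had log2 fold changes of -0.04 ± 0.22 and -0.02 ± 0.13 between the WT cell types, with adjusted p of 0.94 and 0.95 in limma. Between the KO cell types, Rgs2 was at 0.23 ± 0.20, Rgs3 at 0.13 ± 0.12 and Rgs14 at -0.19 ± 0.12 (limma, adjusted p of 0.24 to 0.42). Without Tconv KO replicate 1, Rgs2 was at 0.073, Rgs3 at 0.232 and Rgs19 at -0.33 there.

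**Figure D1:**
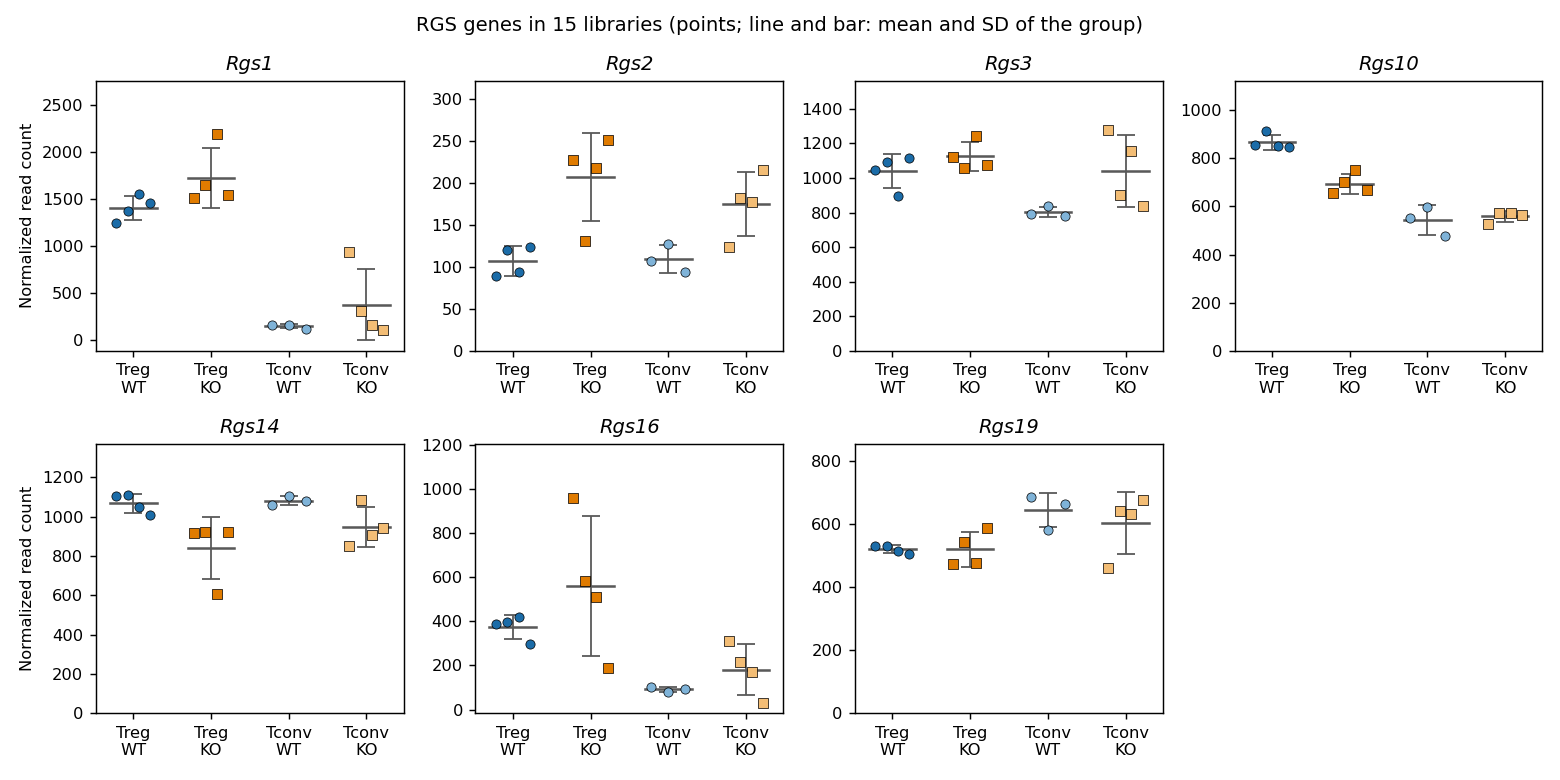
Normalized read counts (y axis) of the 7 RGS genes in the 4 groups (x axis), 1 point per library, with the mean and SD as line and bar. Rgs1 in the 8 Treg libraries sits between 1249 and 2189, above every Tconv library, and Rgs10 in Treg KO (657 to 750) sits below Treg WT (849 to 913).

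KO was next compared with WT in Treg, the cells in which the Cre is active. Rgs2 was higher and Rgs10 and Rgs14 were lower in Treg KO, and the other 4 genes did not pass. These 3 of 7 calls stand beside 21.5% of all tested genes called (10.4% higher and 11.1% lower). The median over the 7 genes was 0.12 on the log2 scale, beside 0.00 over all tested genes.

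Rgs2, an RGS protein with a preference for Gq alpha subunits whose transcription is known to respond to cAMP, the messenger raised by prostaglandin E2 at some of its receptors, lies 238 kb from Rgs1 (chr1:143999338-144004161, minus strand). Its values were 89.1, 120.0, 93.6 and 124 in Treg WT and 228, 131, 218 and 251 in Treg KO. All Treg KO libraries were above all Treg WT libraries, replicate 2 only just. The log2 fold change was 0.92 ± 0.20 (limma, adjusted p = 0.0068), and Rgs2 passed in all 17 alternatives, with adjusted p from 1.5e-04 to 0.0269. Group means were 107 ± 17.9 (SD, n = 4) and 207 ± 52.6 (n = 4). The summed level of 10 B cell markers was also higher in Treg KO, at 305 to 421 with 9 of 10 markers read and Pax5 at 0, against 167 to 266 with 10 of 10 read in Treg WT, and its part in the result was not tested.

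Upstream sequence was available for 5 of the 7 genes, in 8 windows of 250 bases before an annotated start (RefSeq, GRCm38.p6). Those of Rgs2 and Rgs10, the genes that moved in opposite directions in Treg KO under every alternative, and of Rgs16, the gene that varied most among Treg KO libraries, are shown 5′ to 3′ on the strand of the gene. Capitals mark TGACG, the core of a cAMP response element, on either strand (CGTCA on the other).
Rgs2, chr1:144004150-144004399, minus strand: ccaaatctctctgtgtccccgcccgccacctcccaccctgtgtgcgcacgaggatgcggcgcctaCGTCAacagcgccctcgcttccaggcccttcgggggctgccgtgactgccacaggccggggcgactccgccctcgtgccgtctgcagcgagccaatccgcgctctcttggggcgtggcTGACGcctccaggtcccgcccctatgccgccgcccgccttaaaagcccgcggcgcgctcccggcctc
Rgs10, chr7:128418173-128418422, minus strand: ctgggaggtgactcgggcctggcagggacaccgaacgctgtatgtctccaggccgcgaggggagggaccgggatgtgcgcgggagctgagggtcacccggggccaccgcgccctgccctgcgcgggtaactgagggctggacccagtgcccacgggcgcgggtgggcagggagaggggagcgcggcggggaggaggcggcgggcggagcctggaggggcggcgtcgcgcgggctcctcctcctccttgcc
Rgs16, chr1:153740103-153740352, plus strand: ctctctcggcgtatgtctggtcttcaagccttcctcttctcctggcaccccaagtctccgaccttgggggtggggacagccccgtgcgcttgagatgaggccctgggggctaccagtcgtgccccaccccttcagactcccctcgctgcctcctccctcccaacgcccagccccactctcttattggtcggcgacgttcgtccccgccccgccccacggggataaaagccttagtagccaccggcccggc
The Rgs2 window held 2 matches, beginning 185 and 67 bases before the start, and the other 7 windows, including those of Rgs3 and Rgs19, held 0. Of 32851 windows of the same length over all genes, 17.8% held at least 1 match. Those windows were not matched for GC content, which was 72.4% in the Rgs2 window. The part of cAMP or prostaglandin E2 in the level of Rgs2 was not tested. The forkhead motif TGTTTAC, searched on both strands, was found in 0 of the 8 windows and in 3.17% of all windows.

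Rgs10 fell in Treg KO by 0.32 on the log2 scale (SE 0.07, limma, adjusted p = 0.0071), from a mean of 867 ± 30.6 to 695 ± 41.6 (SD, n = 4 each). The values given above show no overlap between the groups, and Rgs10 passed in all 17 alternatives, with adjusted p up to 0.0253. Treg KO was above Tconv of either genotype (478 to 600).

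Rgs14, which besides its RGS domain carries Ras-binding domains and a GoLoco motif for Gi alpha subunits (chr13:55369732-55384687, plus strand), had 1107, 1108, 1049 and 1007 in Treg WT and 915, 924, 605 and 921 in Treg KO. The groups did not overlap. Treg KO replicate 3, the library with the fewest reads (2.64 M), was far below the other 3 Treg KO libraries. Rgs14 fell by 0.36 (SE 0.12, limma, adjusted p = 0.037). The call was lost without any of the 4 Treg WT libraries (adjusted p 0.0587 to 0.0924) and without Treg KO replicate 3 (log2 fold change -0.21, adjusted p = 0.0566). It was also lost with no filter on low values (0.0513), with the GC trend removed (0.0567) and in a fit of these groups alone (0.0847), within a range of 0.0188 to 0.0924 over all alternatives.

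Of the genes that did not pass in Treg, Rgs1 had a log2 fold change of 0.28 ± 0.45 (limma, adjusted p = 0.68), Rgs3 0.12 ± 0.12 (0.49) and Rgs16 0.37 ± 0.57 (0.67). Single libraries moved these values: Rgs16 was 0.0398 without Treg KO replicate 1 and 0.82 without Treg KO replicate 4, Rgs3 was 0.048 without Treg WT replicate 3 and 0.0687 without Treg KO replicate 3, and Rgs1 was 0.159 without Treg KO replicate 3. Rgs19 had means of 520 ± 13.1 and 520.3 ± 55.3 (SD, n = 4 each) and the smallest log2 difference of the 7, -0.0042 ± 0.11 (limma, adjusted p = 0.98).

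In Tconv, 0 of the 7 genes passed between KO and WT in limma, where 0.681% of all tested genes were called, 0.292% higher and 0.389% lower. At an unadjusted p under 0.05 there were 2, Rgs2 and Rgs3, and with edgeR and DESeq2 on the recovered reads there were also 0 after adjustment and 3 before it, Rgs1 being the additional gene. Rgs2 had 107, 127 and 94.2 in Tconv WT and 124, 182, 177 and 216 in Tconv KO. Only Tconv KO replicate 1 lay within the reach of the WT libraries, and the log2 fold change was 0.66 ± 0.22 (limma, adjusted p = 0.22). Rgs3 had 779 to 836 in Tconv WT and 1276, 900.2, 1159 and 836 in Tconv KO. Its groups overlapped only through replicate 4 (log2 fold change 0.36 ± 0.12, limma, adjusted p = 0.25). Rgs1 had a log2 fold change of 0.88 ± 0.48 (limma, adjusted p = 0.48), and 0.26 without Tconv KO replicate 1. For Rgs10, Rgs14, Rgs16 and Rgs19 the log2 fold changes were 0.04 ± 0.08, -0.20 ± 0.13, 0.57 ± 0.62 and -0.11 ± 0.12, with adjusted p of 0.54 to 0.85 in limma. Rgs16 was 0.17 without Tconv KO replicate 1 and 1.30 without Tconv KO replicate 4. Without Tconv KO replicate 1, Rgs19 was 0.0184 and Rgs10 was 0.0727, and Rgs10 was -0.0454 without Tconv WT replicate 3 and 0.119 without Tconv WT replicate 2.

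Whether the genotype difference itself differed between Treg and Tconv was tested as an interaction. In limma 0 of the 7 genes passed, beside 0.15% of all tested genes (0.0354% higher and 0.115% lower), and edgeR and DESeq2 also gave 0. At an unadjusted p under 0.05 there was 1 gene in each of the 3 tools, Rgs10. Its genotype difference in Treg minus that in Tconv was -0.37 ± 0.11 on the log2 scale (limma, adjusted p = 0.30, and 0.16 to 0.58 over the fits that each leave out 1 library). For Rgs2, which passed in Treg and not in Tconv, the interaction was 0.27 ± 0.30 (limma, adjusted p = 0.84), so that a difference between the cell types was not shown. For Rgs1, Rgs3, Rgs14, Rgs16 and Rgs19 it was -0.60 ± 0.66, -0.24 ± 0.17, -0.17 ± 0.17, -0.20 ± 0.84 and 0.10 ± 0.16. Without Tconv KO replicate 1 the interaction was 0.0158 for Rgs1, 0.111 for Rgs2, -0.135 for Rgs3, 0.20 for Rgs16 and -0.0226 for Rgs19, and 0 of these passed in limma, with adjusted p from 0.757 to 0.99.

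**Figure D2:**
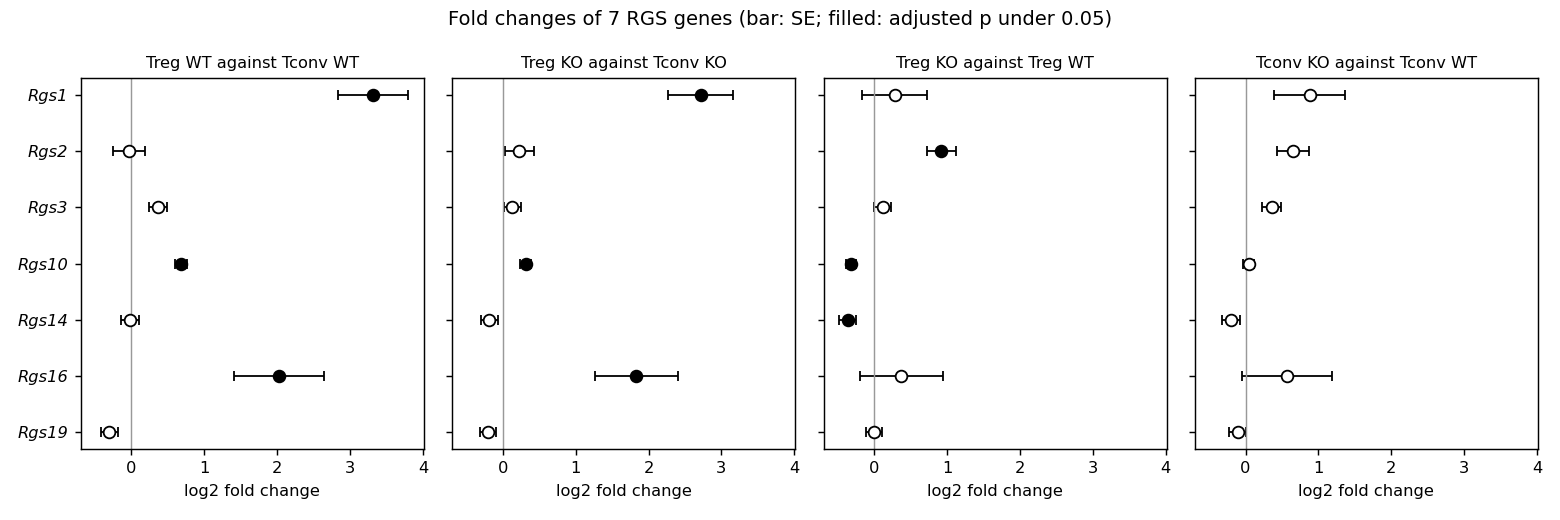
Log2 fold changes (x axis) of the 7 RGS genes (y axis) in 4 comparisons, with SE bars, filled where the adjusted p was under 0.05. Rgs1 reaches 3.31 and 2.71 between cell types, while between genotypes Rgs2 (0.92), Rgs10 (-0.32) and Rgs14 (-0.36) are filled in Treg and no gene is filled in Tconv.

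Rgs16 varied most of the 7 genes among Treg KO libraries, and Rgs1 and then Rgs16 among Tconv KO libraries. The coefficient of variation of Rgs16 was 14.5% in Treg WT and 56.4% in Treg KO, and 11.2% and 64.6% in the Tconv of the same genotypes, and that of Rgs1 was 102.5% in Tconv KO but 18.4% in Treg KO, where Rgs2 (25.4%) and Rgs14 (18.7%) were above it. The difference in spread was not tested. Consecutive label numbers fall on 1 Treg and 1 Tconv library of 1 genotype, without a statement that such a pair shares an animal. Over the 4 KO pairs, in order of number, Rgs16 was 959, 585, 511 and 189 in Treg and 309, 214, 170 and 28.9 in Tconv. The order of the 4 pairs was the same in both cell types, and the pair numbered 580 and 581 was below the WT libraries of its own cell type in each. Over the WT pairs the order of Rgs16 was not shared, at 389, 398 and 421 in Treg and 100.3, 80.1 and 92.8 in Tconv. Rgs1 did not share an order between the cell types, since its highest Treg KO library was replicate 3 and its highest Tconv KO library was replicate 1. With 4 pairs no correlation is given.

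**Figure D3:**
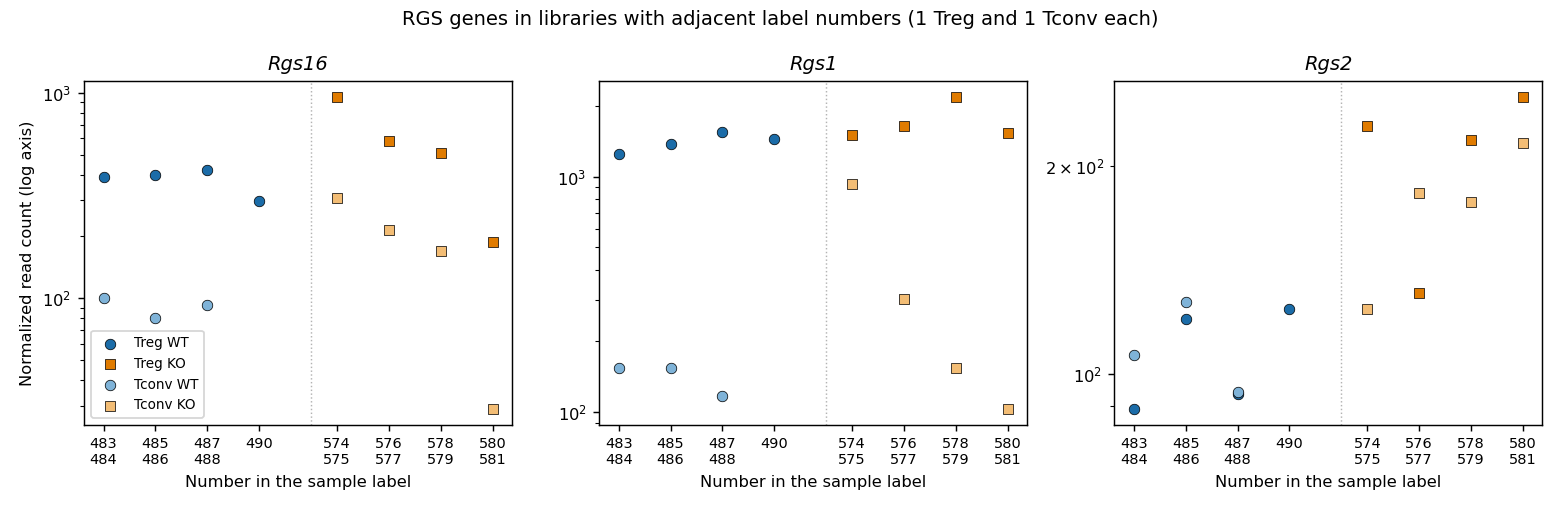
Normalized read counts (y axis, log scale) of Rgs16, Rgs1 and Rgs2 against the pair of adjacent label numbers (x axis), 1 point per library, with WT left and KO right of the dotted line and number 490 standing alone. Rgs16 falls from 959 to 189 in Treg KO and from 309 to 28.9 in Tconv KO in the same order of pairs, whereas Rgs1 has its highest values in different pairs of the 2 cell types.

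Several marker lists moved along the same Tconv KO libraries. The summed level of 10 follicular helper and activation genes, a list added after values were seen, was 10329, 6497, 5605 and 3132 in Tconv KO replicates 1 to 4, against 4166 to 5122 in Tconv WT, with 10 of 10 genes read in each group. In Treg KO it was 11015, 7835, 9191 and 6733, against 6127 to 6663 in Treg WT. The 4 Treg markers summed to 4062, 1778, 1658 and 640 in Tconv KO and 1065 to 1258 in Tconv WT, all 4 being read in each group. Most of that sum in Tconv KO was Ikzf2, at 3195, 1215, 1139 and 366. Ctla4, at 764, 424, 434 and 188, was also highest in replicate 1 and lowest in replicate 4. Foxp3 itself was 47.2, 69.5, 27.6 and 18.9 in Tconv KO, highest in replicate 2. Il2ra was 55.9, 69.5, 57.2 and 67.2 there, lowest in replicate 1. Rgs1 and Rgs16 in Tconv KO had their highest value in replicate 1 and their lowest in replicate 4, as these sums did. The part of these cells or states in the values of Rgs1 and Rgs16 was not tested.

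Of 15 other RGS genes, 10 were in the table and 4 were abundant enough to be tested. Rgs9, best known from photoreceptors and striatal neurons, passed with the largest difference between the cell types among these 4. Its values were 242, 306, 259 and 247 in Treg WT against 13.6, 11.6 and 13.7 in Tconv WT, without overlap (log2 fold change 4.24 ± 0.41, limma, adjusted p = 2.8e-06). In KO animals it was 195 to 445 in Treg and 13.3 to 62.9 in Tconv (3.47 ± 0.38, limma, adjusted p = 6.7e-06). Rgs11, a gene of the same R7 subfamily, went the other way, with means of 26.8 ± 4.77 (SD, n = 4) in WT and 12.1 ± 6.01 (n = 4) in KO Treg, and 98.2 ± 15.8 (n = 3) in WT and 82.4 ± 27.6 (n = 4) in KO Tconv. It was lower in Treg than in Tconv, at a log2 fold change of -1.84 ± 0.33 in WT (limma, adjusted p = 9.9e-04) and -2.69 ± 0.31 in KO (adjusted p = 1.1e-05), and lower in Treg KO than in Treg WT, at -1.17 ± 0.31 (adjusted p = 0.016), without overlap. Rgs11 had only 4 to 17 reads per library in Treg KO, against 35 to 40 in the deeper Treg WT libraries. No alternative fit is given for it. Rgs12 and Rgs8 did not pass in any comparison. Rgs13 had 0 reads among 96.9 M, which allows up to 0.031 reads per M reads and covers counting error only.

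**Figure D4:**
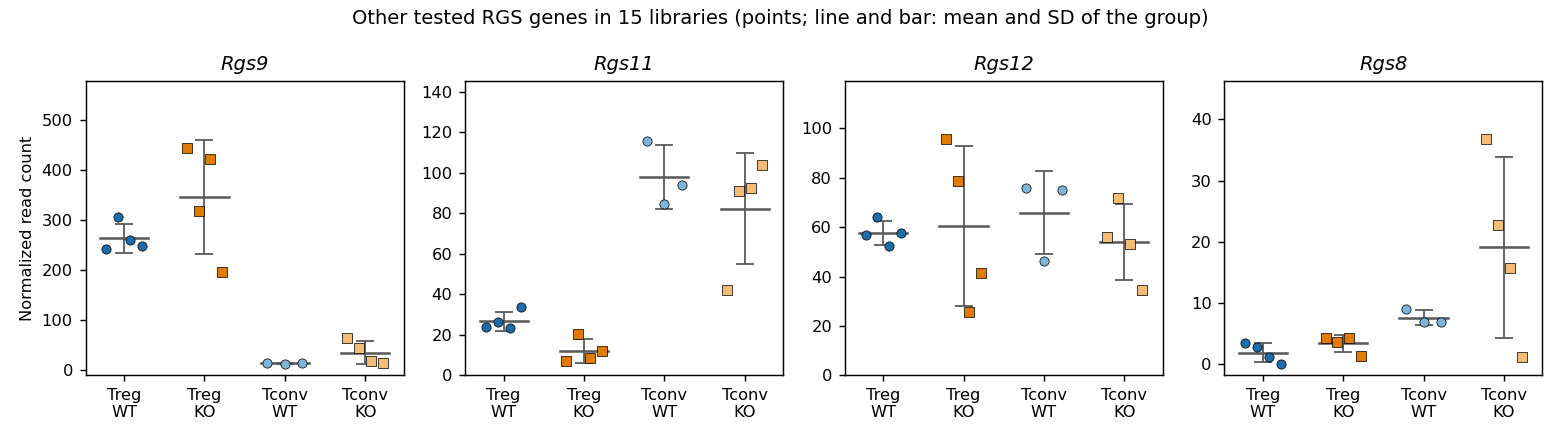
Normalized read counts (y axis) of the 4 other tested RGS genes in the 4 groups (x axis), 1 point per library, with the mean and SD as line and bar. Rgs9 is at 195 to 445 in Treg and at most 62.9 in Tconv, and Rgs11 is highest in Tconv.

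The rest of the pathway was read from 7 further lists. Their counts stand beside 21.5% of all tested genes called in Treg KO against Treg WT (10.4% higher, 11.1% lower), 18.1% in Treg WT against Tconv WT and 31.4% in Treg KO against Tconv KO, and with lists of 6 to 24 tested genes nothing particular to a list is read from them. Between KO and WT Tconv and in the interaction 0 genes of any list passed in limma. Among receptors of lymphocytes, 24 of 24 were tested, and 5 rose (Ccr2, Ccr4, Cxcr6, Lpar6 and P2ry10) and 1 fell (S1pr4) in Treg KO, beside 21.5% of all tested genes called. Between cell types 9 were higher and 8 lower in Treg in WT, beside 18.1% of all tested genes called, and 9 were higher and 8 lower in KO, beside 31.4%. Gpr83, an orphan receptor marking regulatory T cells, was 538 to 745 in Treg WT and 32.5 to 51.6 in Tconv WT (log2 fold change 3.80 ± 0.22, limma, adjusted p = 1.6e-08), and the chemokine receptor Cxcr6 was lower in Treg WT (-3.04 ± 0.33, adjusted p = 9.9e-06).

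Among the alpha subunits on which the RGS proteins act, 10 of 13 were tested, and in Treg KO 1 rose and 2 fell, beside 21.5% of all tested genes called. Gnai2, the main Gi alpha subunit of lymphocytes, fell from 3676 ± 147 to 2879 ± 171 (SD, n = 4 each, log2 fold change -0.35 ± 0.06, limma, adjusted p = 0.0022). Gna11, of the Gq family, fell by 0.56 (adjusted p = 0.0092) and Gnai3 rose by 0.30 ± 0.08 (adjusted p = 0.019). Gnaq, the Gq alpha subunit, was higher in Treg than in Tconv, by 1.28 ± 0.34 in WT (adjusted p = 0.016) and by 1.49 ± 0.32 in KO (adjusted p = 0.0023). Of the beta and gamma subunits 9 of 16 were tested, and Gng5 (-1.07 ± 0.24, adjusted p = 0.0067) and Gngt2 fell in Treg KO while 0 rose.

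Of the receptor kinases and arrestins, which switch off the receptors themselves, 6 of 7 were tested. In Treg KO 2 fell and 0 rose, beside 11.1% and 10.4% of all tested genes, Arrb2 by 0.41 (SE 0.06, limma, adjusted p = 5.3e-04) and Grk6 by 0.55 (SE 0.12, adjusted p = 0.0063). Arrb2 and Grk6 were also lower in Treg than in Tconv in WT and in KO. Of 9 other genes with an RGS-like domain, all tested, Snx14 rose and Arhgef1 and Axin2 fell in Treg KO, beside 21.5% of all tested genes called. Of 6 tested helpers of G proteins, Ccdc88a and Gpsm2 rose and Gpsm3 and Ric8 fell in Treg KO, beside the same 21.5%. The median log2 fold changes of these lists in Treg KO against Treg WT ran from -0.13 (beta and gamma subunits) to 0.18 (receptors), beside 0.00 over all tested genes. Of 10 tested effectors, Pik3cg and Plcb4 rose and the adenylyl cyclase Adcy6 fell in Treg KO (-1.01 ± 0.19, limma, adjusted p = 0.0030), beside 21.5% of all tested genes called. Adcy6 was also lower in Treg WT than in Tconv WT (-1.65 ± 0.21), and the phospholipase Plcb3 was higher by 1.51 ± 0.16. Treg KO replicate 3, the library with the fewest reads, was the lowest Treg KO library for Gnai2, Gna11, Gng5, Arrb2, Grk6, Axin2, Gpsm3 and Ric8. It was the highest for Gnai3, Snx14, P2ry10 and Ccdc88a. For Gngt2, Cxcr6, Gpsm2 and Adcy6 it was not the most shifted library. No fit without it is given for list genes.

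The genes most like each RGS gene over the 15 libraries were sought among 8856 tested genes with a mean of at least 50. The libraries share their differences in cell type and genotype, so these Pearson correlations are descriptions. Rgs1 was most like Arhgef12 (r = 0.988), Naip5 (0.985) and Dst (0.984). Rgs16 was most like D430019H16Rik (0.983), Npas4 (0.977) and Fam160a1 (0.973), and Rgs2 was most like Ero1l (0.943), Mtx3 (0.918) and Nae1 (0.908). Rgs10 was nearest to Trpc4ap (0.970), Nabp1 (0.926) and Ncoa3 (0.922), and Rgs14 to Sys1 (0.970), Fkbp8 (0.970) and Nr1h2 (0.967). Rgs3 and Rgs19 had Dpy19l3 (0.895) and Mrm1 (0.948) as their nearest genes.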

How the data were processed

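Libraries were made from 10 ng of total RNA of sorted cells with an Illumina TruSeq RNA kit, per the labels. TopHat and build mm10 are named in the submitters' processing notes. The TopHat version, counting tool, strand setting and annotation used were not stated in any source used here. The authors deposited a normalized signal per gene, which its values show to be a read count divided by 1 factor per library. Whole reads were recovered for 100% of values (tolerance 0.001).

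Values were analysed as log2(value + 1) for 11314 genes with at least 10 in at least 3 libraries. All 15 libraries entered 1 limma fit (limma 3.58.1, R 4.3.3) of 4 group means, with a mean-variance trend, two-sided, with Benjamini-Hochberg adjustment per comparison. The script was first tested on simulated data. Samples were taken as independent, since no label says which share an animal, and replicates were numbered in record order. Each p-value thus reflects only the spread between these samples, which may be technical.

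Alternatives were edgeR 4.0.16 (TMM) and DESeq2 1.42.0 on the recovered reads, a pseudocount of 8, no filter, TMM factors, only the groups compared, reads thinned to 1 depth, GC trend removed (GC known for 11221 of the tested genes), adjacent label numbers as a random block, and leaving out each replicate. Members and lists were chosen with earlier results of these data known. All 7 members were named, with the 3 genes most like each (some left out of the text) and, per list, up to 4 genes with the smallest p. Other list genes named are those that make up a count of 5 or fewer and were chosen after their values were seen. Lengths and positions came from GENCODE vM21 (GRCm38), promoters from RefSeq. Figures were drawn with matplotlib 3.10.9.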

Additional observations from a re-analysis of the deposited data

Results flagged for a closer look

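Of 21 groups of 4 libraries looked at (7 genes in 3 groups), 2 held a library far from the other 3, where chance alone flags about 5% of groups. In Treg WT, Rgs10 was 913 in replicate 2 and 849 to 854 in the others, and the gap to the nearest library made up 0.929 of the group's range, above Dixon's 95% limit for 4 values. In Treg KO, Rgs14 was 605 in replicate 3 and 915 to 924 in the others, a share of 0.972. Without the first library Rgs10 still passed in Treg KO against Treg WT. Without the second, Rgs14 no longer did (limma, log2 fold change -0.21, adjusted p = 0.0566, within 0.0188 to 0.0924 over its alternatives).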

How the results depend on the processing

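The counts of members that passed were within 1.5 times the reported ones except for Treg WT against Tconv WT, where 5 rather than 3 passed with DESeq2, in a fit of only these groups and with adjacent label numbers as a block (consensus correlation 0.248). Over all tested genes, Treg KO against Treg WT gave 1504 calls with the GC trend removed against 2431, and 1394 to 2741 leaving out 1 library (1394 without Treg WT replicate 1, 1495 without replicate 4). Tconv KO against Tconv WT gave 236 with DESeq2 and 32 in its own groups' fit against 77, and 22 to 105 leaving out 1 library, the lower counts being without a Tconv WT replicate (22, 27 and 30) or Tconv KO replicate 1 (50). The interaction gave 91 with DESeq2 and 44 with the block against 17, and 3 to 23 leaving out 1 library. It has no fit of only the groups compared. Treg WT against Tconv WT gave 3990 and Treg KO against Tconv KO 2042 in fits of their own groups, against 2046 and 3558. Removing the GC trend moved the share of calls that were higher in Treg from 55.4% to 41.3% in WT and from 50.4% to 38.9% in KO. The cause of these shifts was not tested. Signs turned only for differences that passed in no setting. Rgs19 in Treg KO against Treg WT was 0.0058 (DESeq2), 0.0086 (thinned) and 0.0734 (GC trend removed), and -0.0653 to 0.0381 leaving out 1 library, and in Treg WT against Tconv WT thinned reads gave Rgs2 0.0175 (-0.139 to 0.0747 leaving out 1 library) and Rgs14 0.00908 (-0.0382 to 0.00784). Leaving out 1 library also turned Rgs10 (-0.0454 to 0.119) and Rgs19 (-0.177 to 0.0184) between Tconv KO and WT, and the interaction of Rgs1 (-1.04 to 0.0158), Rgs16 (-0.925 to 0.252) and Rgs19 (-0.0226 to 0.173).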
